A study of Rattus norvegicus with 19 samples.

Results

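Isg15, Rsad2, Oas1a, Ifit3, Mx1, Mx2, Irf7 and Usp18 are interferon-stimulated genes of antiviral defence, and Ifitm3 encodes an interferon-inducible membrane protein that hinders the entry of viruses into cells. Their signals were followed in rat motor cortex after a lesion of the spinal cord. These 9 genes, of 14217 with a probe set of their own, were chosen by values from the same arrays. The first 8, called the antiviral genes here, were chosen for a lower signal than control at days 1 and 3, and Ifitm3 for a higher signal at day 1. The differences at days 1 and 3 are therefore a description, with no test. Each gene had 1 probe set annotated to it alone, except Mx2 with 2, which makes 10 of the 31042 probe sets tested.

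The tissue was deep motor cortex, from the forelimb and hindlimb areas of adult female Fischer 344 rats, cut out by microdissection. The lesion severed the dorsal columns at the third cervical segment, which carry the corticospinal axons of layer V neurons in rats, so the injury lay far from the tissue that was measured. The groups were rats at day 1, day 3, day 7, day 14 and day 49 after the lesion (n = 3 each) and control rats (n = 4), whose labels give time 0 and do not say whether a sham operation was done. All rats had the same strain and sex, and the labels name no engineered allele. Values are log2 signals that the authors obtained with RMA, so a difference of 1 is a doubling, and levels of different probe sets are not compared. The labels name separate samples without saying that each is another animal, so p-values measure the spread between these samples.

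Interferons are secreted proteins that warn cells of viral infection. Type I interferons bind a receptor of Ifnar1 and Ifnar2, whose kinases Jak1 and Tyk2 pass the signal on to a complex that contains Irf9. This complex binds the interferon-stimulated response element (ISRE) in the promoters of target genes. Among the targets are proteins that block viruses, the transcription factor Irf7 that amplifies interferon production, and Usp18, which dampens the receptor. In brain, microglia, astrocytes, endothelial cells and neurons can all respond, and a low basal level of these transcripts is present without infection.

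Promoter sequences are shown for 5 members and for Ifitm2, a close relative of Ifitm3, because this element is a textbook feature of interferon-stimulated genes. Whether it has a part in how the genes moved from array to array was not tested. RefSeq promoters of build GRCr8, from 250 bases before to 50 after each gene's start, held entries for 6 of the 9 members. Both strands were searched for the ISRE core GAAANNGAAA, which was found in 5 of the 6, those of Rsad2, Oas1a, Ifit3, Irf7 and Ifitm3, and not in that of Mx1. Of all 33469 promoters in the table, 3.92% held it. Each sequence runs 5′ to 3′ along the gene's strand, and capitals mark the core or its reverse complement.
Rsad2: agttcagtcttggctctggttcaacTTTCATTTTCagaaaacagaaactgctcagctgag
Oas1a: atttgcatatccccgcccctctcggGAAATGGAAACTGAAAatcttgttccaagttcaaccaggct
Ifit3: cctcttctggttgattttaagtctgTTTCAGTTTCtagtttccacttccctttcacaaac
Irf7: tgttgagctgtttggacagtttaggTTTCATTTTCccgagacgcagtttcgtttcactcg
Ifitm3: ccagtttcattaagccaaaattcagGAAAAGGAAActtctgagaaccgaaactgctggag
Ifitm2: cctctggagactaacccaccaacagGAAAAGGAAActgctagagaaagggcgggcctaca

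The Rsad2 window is chr6:48788233-48788292 on the minus strand, and its capitals begin 147 bases before the start. The Oas1a window is chr12:41330400-41330465 on the plus strand, where 2 overlapping cores begin 41 bases before the start. The Ifit3 window is chr1:241527257-241527316 on the plus strand, with the core 44 bases before the start. Irf7, Ifitm3 and Ifitm2 lie on the minus strand of chromosome 1. Their windows are chr1:205800058-205800117, chr1:205541768-205541827 and chr1:205482347-205482406, and the cores begin 69, 44 and 33 bases before the starts. Ifitm3 and Ifitm2 share the 10 capital letters and the bases directly around them, 15 bases in a row. The letters TTCNNNGAA, known as the gamma-activated sequence, were found on either strand in 2 of the 6 member promoters, Oas1a and Ifitm3, against 8.87% of all promoters. These matches describe the letters only and do not show binding.

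The arrays are described first, because a pair of them stood apart. Each array's median correlation with the rest was 0.9936 to 0.9974 in 17 arrays, whereas it was 0.931 in day 14 replicate 2 and 0.9685 in day 49 replicate 2. The beta-actin 3' signal minus its 5' signal, which grows as RNA breaks, was 2.24 on the log2 scale in day 14 replicate 2. It was 0.845 in day 49 replicate 2 and 0.877 to 1.29 in the 17 arrays. Of layer V markers, log2 signals were 10.87 to 11.28 for Etv1, 12.65 to 13.16 for Pcp4 and 7.65 to 8.17 for Crym. They were 4.43 to 6.12 for Bcl11b and 4.00 to 4.91 for Fezf2, which mark corticospinal neurons more narrowly. Among microglia markers they were 4.33 to 4.90 for Tmem119, 4.60 to 4.98 for Cx3cr1 and 4.35 to 7.25 for P2ry12. In bulk tissue, fewer cells of a type and less RNA per cell cannot be told apart.

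At day 1 the antiviral genes lay below control and Ifitm3 above it, which is how they were chosen. In comparisons without the arrays of that choice the antiviral median and Ifitm3 moved the same way. The antiviral values there rest in part on arrays that stood apart. Day 14 minus day 7 gave 0.40 (antiviral median) and 0.43 (Ifitm3), and day 49 minus day 14 gave -0.25 and -0.34. The antiviral genes were below control on average at days 1, 3 and 7 and near control at day 14, and their control arrays were widely spread. Ifitm3 stood high at day 1, by 1.85-fold, had a narrow control group and lay slightly above control again at day 14. No member passed the adjusted threshold in a comparison that could be tested, except in 1 test with array weights given below.

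**Figure D1:**
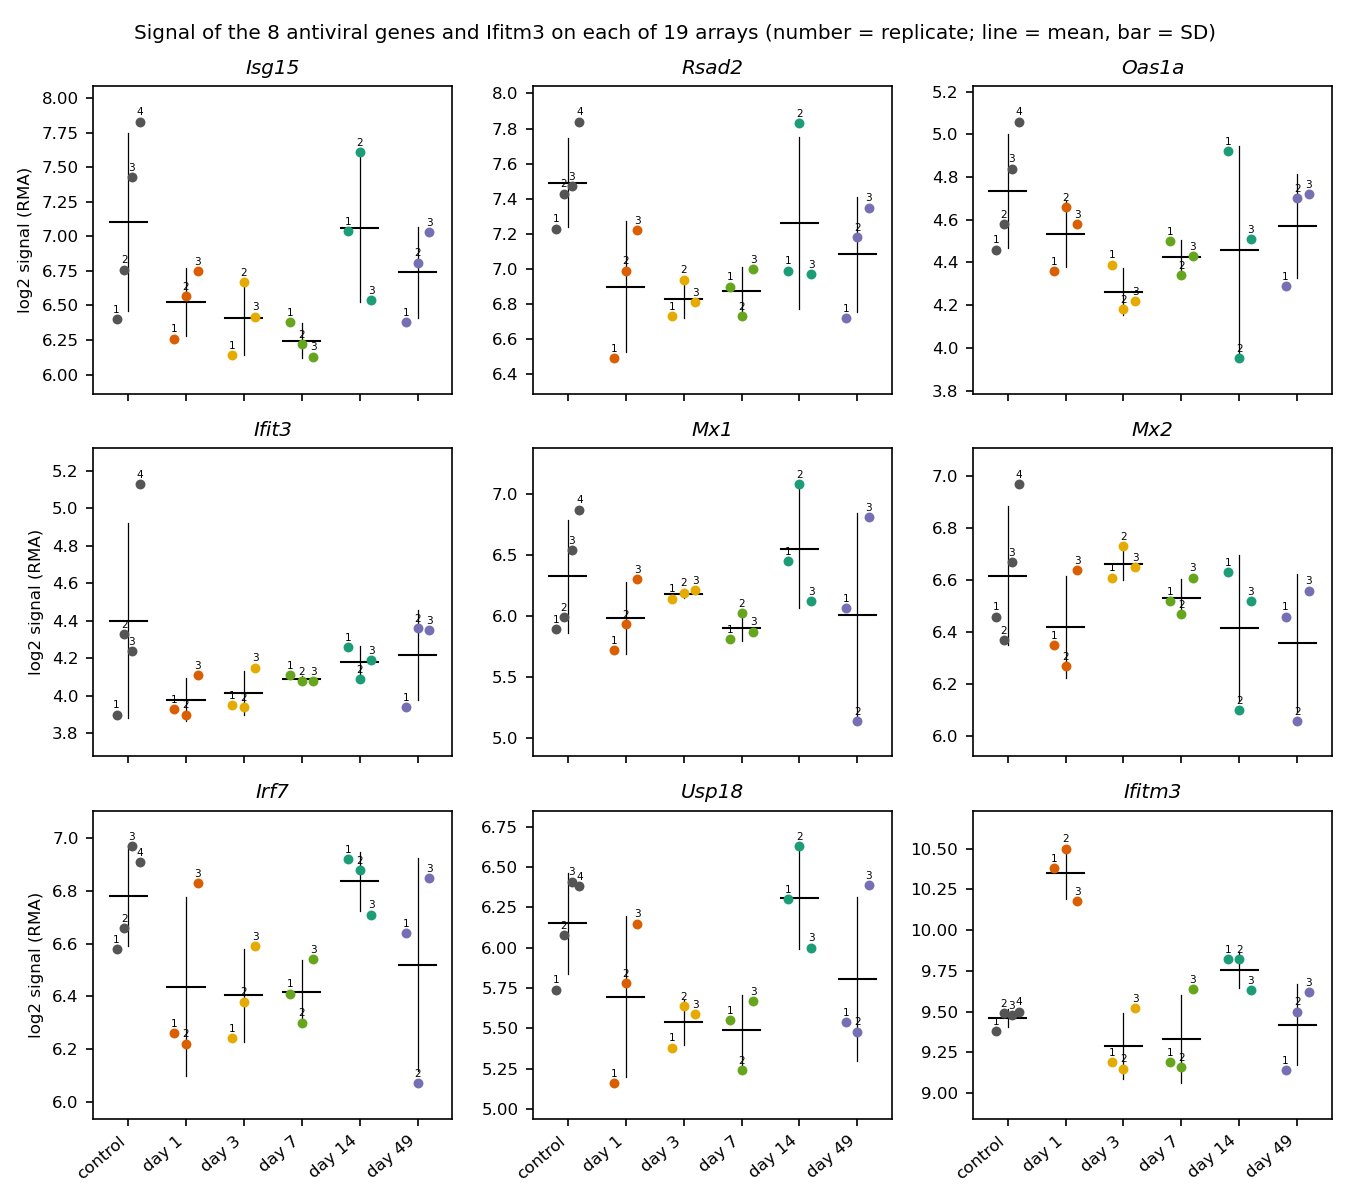
Log2 RMA signal (vertical axes, which differ between panels) of the 8 antiviral genes and Ifitm3 in each array, with control and days 1 to 49 from left to right; points are arrays numbered by replicate, horizontal lines are group means and bars are SD. The control points of Isg15 span 1.43, whereas those of Ifitm3 span 0.11.

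The first question was how the effectors behaved that act directly on viruses. Isg15 encodes a ubiquitin-like protein that is attached to other proteins. Its log2 signal was 6.40, 6.76, 7.43 and 7.83 in control, 6.26, 6.57 and 6.75 at day 1, 6.14, 6.67 and 6.42 at day 3, and 6.38, 6.22 and 6.13 at day 7. It was 7.04, 7.61 and 6.54 at day 14 and 6.38, 6.81 and 7.03 at day 49. All day 7 arrays lay below all controls, whereas the day 1 and day 3 arrays overlapped the lowest controls. The mean difference from control was -0.58 at day 1, -0.70 at day 3 and -0.86 at day 7 (SE 0.30 each).

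Rsad2 encodes viperin, a radical SAM enzyme that makes a nucleotide analogue which ends viral RNA synthesis. Its signal was 7.23, 7.43, 7.47 and 7.84 in control, 6.49, 6.99 and 7.22 at day 1, 6.73, 6.94 and 6.81 at day 3, and 6.90, 6.73 and 7.00 at day 7. Rsad2 was the only member with all arrays of days 1, 3 and 7 below all controls, although day 1 replicate 3 at 7.22 was next to control replicate 1 at 7.23. At day 14 it was 6.99, 7.83 and 6.97, with the high value in the array that stood apart, and at day 49 it was 6.72, 7.18 and 7.35. The differences from control were -0.59, -0.67 and -0.61 at days 1, 3 and 7 (SE 0.22 each), or 0.665, 0.631 and 0.654 of the control level.

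Oas1a encodes an oligoadenylate synthetase, whose product switches on the RNA-degrading enzyme RNase L. Its signal was 4.46, 4.58, 4.84 and 5.06 in control, 4.36, 4.66 and 4.58 at day 1, 4.39, 4.18 and 4.22 at day 3, and 4.50, 4.34 and 4.43 at day 7. It was 4.92, 3.95 and 4.51 at day 14 and 4.29, 4.70 and 4.72 at day 49. Only the day 3 arrays all lay below the controls, with a difference of -0.47 (SE 0.19). Ifit3 encodes a member of the family that recognises foreign RNA ends. Its signal was 3.90, 4.33, 4.24 and 5.13 in control, and all 15 lesion arrays lay between 3.90 and 4.36, inside the control range. The difference of -0.42 at day 1 (SE 0.20) became -0.18 without control replicate 4. Both Oas1a and Ifit3 lay below the median probe set level of 5.60.

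Mx1 and Mx2 encode dynamin-like GTPases that trap viral components. Mx1 was 5.89, 5.99, 6.54 and 6.87 in control, 5.72, 5.93 and 6.30 at day 1, 6.14, 6.19 and 6.21 at day 3, 5.81, 6.02 and 5.87 at day 7, 6.45, 7.08 and 6.12 at day 14 and 6.06, 5.14 and 6.81 at day 49. Its groups overlapped with control at every time. The brighter Mx2 probe set was 6.46, 6.37, 6.67 and 6.97 in control, 6.35, 6.27 and 6.64 at day 1 and 6.61, 6.73 and 6.65 at day 3. It was 6.52, 6.47 and 6.61 at day 7, 6.63, 6.10 and 6.52 at day 14 and 6.46, 6.06 and 6.56 at day 49. Mx2 was thus the member with the smallest differences from control at days 3 and 7, 0.05 and -0.09 (SE 0.16 each). The dimmer Mx2 probe set stayed between 3.26 and 3.73 over all 19 arrays.

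Among the regulators, Irf7 encodes the transcription factor that drives the later interferon genes. Its signal was 6.58, 6.66, 6.97 and 6.91 in control, 6.26, 6.22 and 6.83 at day 1, 6.24, 6.38 and 6.59 at day 3, and 6.41, 6.30 and 6.54 at day 7. At day 14 it was 6.92, 6.88 and 6.71, and at day 49 it was 6.64, 6.07 and 6.85. All day 7 arrays lay below all controls and below all day 14 arrays. Usp18 encodes the protease that removes Isg15 from proteins and restrains the interferon receptor. It was 5.74, 6.08, 6.41 and 6.38 in control, 5.16, 5.78 and 6.15 at day 1, 5.38, 5.64 and 5.59 at day 3, and 5.55, 5.24 and 5.67 at day 7. Its 6 arrays of days 3 and 7 all lay below the controls. At day 14 it was 6.30, 6.63 and 6.00 and at day 49 it was 5.54, 5.48 and 6.39.

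Ifitm3 had its highest values at day 1. Its signal was 9.38, 9.49, 9.48 and 9.50 in control, 10.38, 10.50 and 10.18 at day 1, 9.19, 9.15 and 9.52 at day 3, 9.19, 9.16 and 9.64 at day 7, 9.82, 9.82 and 9.63 at day 14 and 9.14, 9.50 and 9.62 at day 49. All 3 day 1 arrays lay above all 16 others. The difference from control was 0.89 at day 1 (SE 0.14), and day 3 lay below day 1 by a difference of -1.07 (SE 0.15). By group mean the order was day 1 at 10.35 ± 0.16, day 14 at 9.76 ± 0.11, control at 9.46 ± 0.05, day 49 at 9.42 ± 0.25, day 7 at 9.33 ± 0.27 and day 3 at 9.29 ± 0.20 (SD, n = 3, control n = 4). The last 4 of these overlapped with their neighbours, and the day 14 arrays overlapped with the highest day 7 array.

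**Figure D2:**
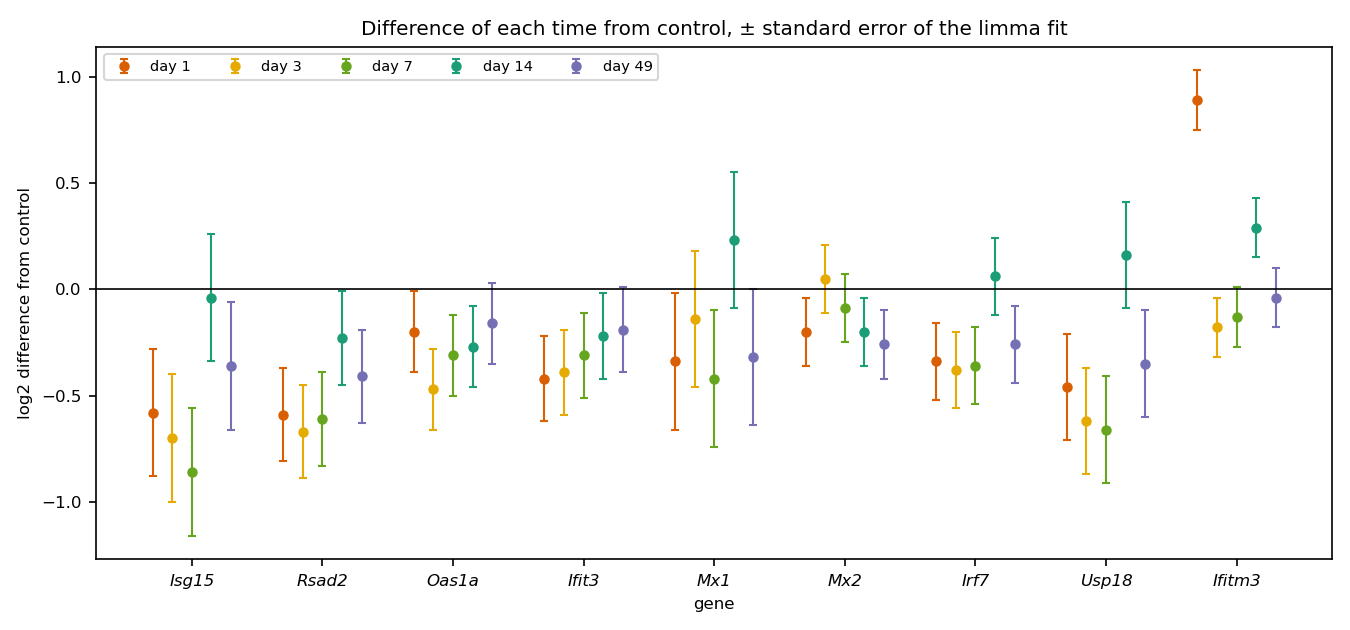
Log2 difference from control (vertical axis) for each of the 9 genes (horizontal axis) at days 1, 3, 7, 14 and 49, shown in that order as coloured points with the standard error of the limma fit. At day 1 Ifitm3 is at 0.89 and the 8 antiviral genes lie between -0.59 and -0.20.

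Taken as a list, the 8 antiviral genes had a median difference from control of -0.38 at day 1, with 8 of 8 below 0, whereas the median of all probe sets was 0.01. At day 3 the median was -0.43 with 7 of 8 below 0, the exception being Mx2, against a median of -0.00 over all probe sets. Both sets of values chose the genes and support nothing further. Arrays that did not overlap with the controls were found below them for 1 of 9 members at day 1 (Rsad2; 2.54% of all probe sets) and above them for 1, Ifitm3 (4.4%). At day 3 they were found below for 3, Rsad2, Oas1a and Usp18 (2.82%). limma called 0.0354% of all probe sets at day 1 and 0% at day 3 at an adjusted p under 0.05.

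The size of these differences depended on which controls they were set against. Control replicates 3 and 4 were the highest 2 of the 4 controls in 7 of 8 antiviral genes, the exception being Ifit3, and replicate 4 was the highest in 6 of 8, not in Irf7 and Usp18. Replicate 4 lay above every array of days 1, 3 and 7 in 8 of 8. The mean over the 8 genes was 5.83, 6.02, 6.32 and 6.62 in control replicates 1 to 4, compared with 5.57 to 6.07 over the 9 arrays of days 1, 3 and 7. Control replicate 1 and control replicate 2 thus fell inside the range of the lesion arrays. The labels do not pair lesion and control samples. Deviations from group means correlated weakly between day 1 and control arrays of like number (0.166, 0.117 and 0.269). Within these 3 pairs by number, the mean of the 8 genes, day 1 minus control, differed by -0.27, -0.23 and -0.25. Such pairs leave out control replicate 4 and use the day 1 values that chose the genes. Of the 8 genes, 6 lay below their control in 3 of 3 pairs, and Oas1a and Ifit3 did so in 2 of 3. Within the same pairs Ifitm3 differed by 0.99, 1.01 and 0.70. The 4 controls spanned 1.43 in Isg15, 1.23 in Ifit3 and 0.98 in Mx1, whereas the 6 arrays of days 3 and 7 spanned 0.54, 0.20 and 0.39 in these genes. Ifitm3 had the opposite order, with 0.49 over the 6 arrays of days 3 and 7 and 0.11 over the 4 controls.

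Without control replicate 4, the median difference of the 8 genes was -0.24 at day 1, -0.35 at day 3 and -0.28 at day 7. Without day 1 replicate 1 it was -0.23 at day 1. Without control replicate 4, Mx1 lay at 0.04 and Mx2 at 0.16 at day 3, and Mx2 at 0.03 at day 7. Rsad2 kept -0.47, -0.55 and -0.50 and Usp18 kept -0.38, -0.54 and -0.59 at days 1, 3 and 7. The day 1 difference of Ifitm3 was 0.90 without that array. Some marker lists moved with the antiviral genes among the controls, in the other direction. The 3 of 8 red cell markers that were measured averaged 7.79, 7.64, 7.36 and 6.93 in control replicates 1 to 4, and 8 of 10 neutrophil and monocyte markers averaged 6.27, 6.22, 5.87 and 5.62. The endothelial and pericyte (6.47, 6.47, 6.37 and 6.34), meningeal (8.58, 8.62, 8.42 and 8.35), myelin (7.42, 7.38, 7.25 and 7.21) and superficial layer neuron lists (5.69, 5.68, 5.55 and 5.46) were also higher in replicates 1 and 2 than in 3 and 4. Their part in the spread of the controls was not tested.

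**Figure D3:**
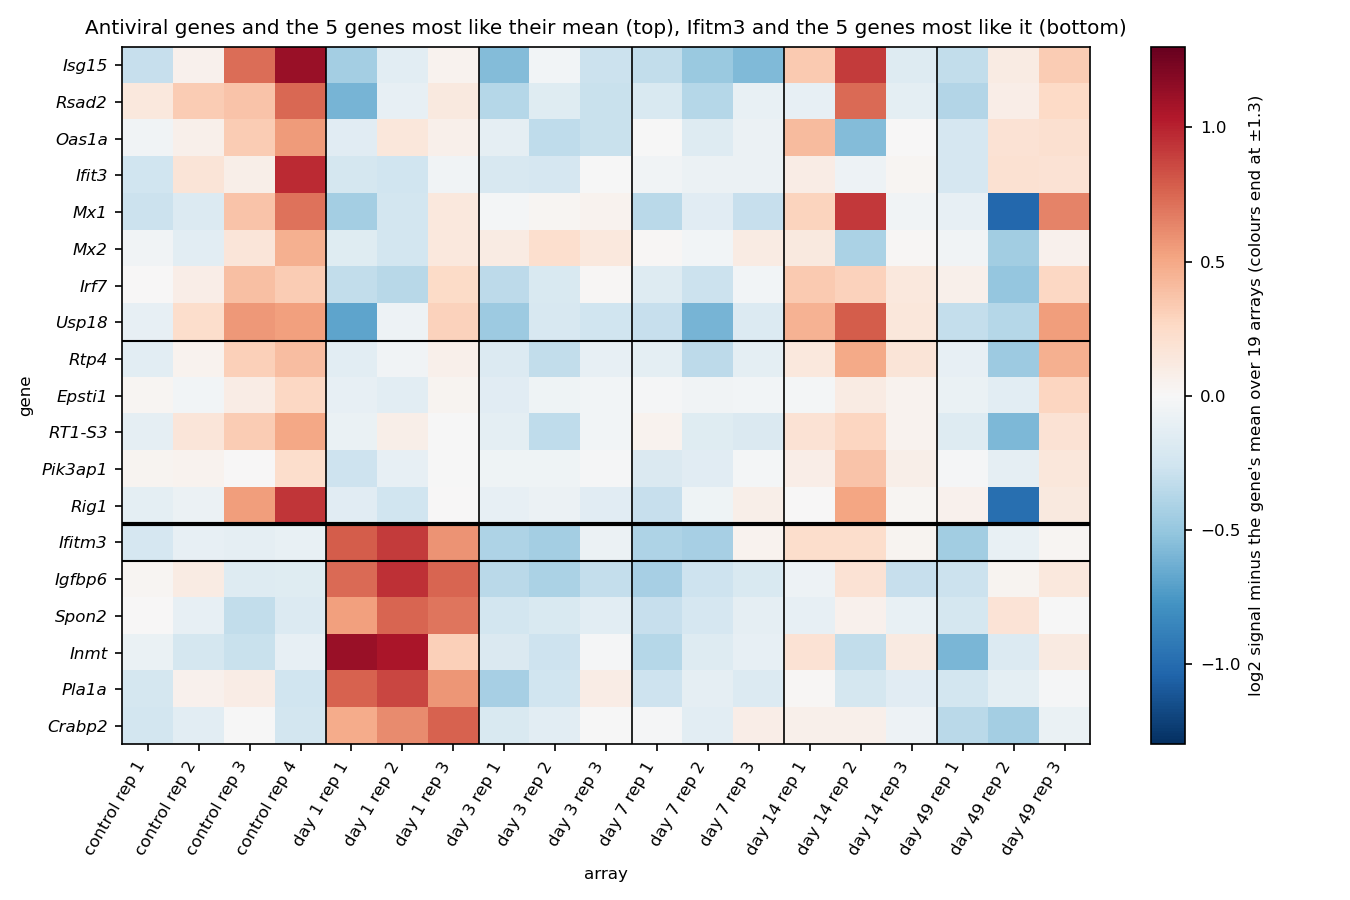
Log2 signal minus each gene's mean over the 19 arrays (colour, red high and blue low), with genes down the page and arrays across it in time order from control to day 49. The upper block holds the 8 antiviral genes and the 5 genes most like their mean, where control replicates 3 and 4 are mostly red, and the lower block holds Ifitm3 and the 5 genes most like it, where the 3 day 1 arrays are red.

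Day 7 against control was not among the differences that chose the members, but it shares the control arrays with them. High control values enter both, so the day 7 counts below are no independent support for the choice. Isg15 was lower at day 7 by a difference of -0.86 (0.55 of the control level), Usp18 by -0.66 and Rsad2 by -0.61. With limma, 0 of 10 member probe sets were called at an adjusted p under 0.05, as were 0% of all probe sets, and 3 of 10 had an unadjusted p under 0.05, against 0.886% of all. These were Isg15 (unadjusted p = 0.0106), Rsad2 (unadjusted p = 0.0128) and Usp18 (unadjusted p = 0.018), each with an adjusted p of 1 in limma. Every day 7 array lay below all controls in 4 of 9 members, namely Isg15, Rsad2, Irf7 and Usp18, against 4.19% of all probe sets. The median of the 8 antiviral genes was -0.39, with 8 of 8 below 0, and that of all probe sets 0.00. Over the 17 arrays without the pair that stood apart, the differences were the same and Irf7 (limma unadjusted p = 0.0208) and Oas1a (limma unadjusted p = 0.0414) were also under 0.05, with an adjusted p of 0.986 in each. The share of all probe sets under 0.05 in that fit is not given here, so the larger count is not read as a result about the members.

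The comparison of day 7 with day 3 shares the day 3 arrays with the choice of the antiviral genes. The median difference of the antiviral genes, day 7 minus day 3, was -0.02 and Ifitm3 differed by 0.04. limma called 0 of 10 member probe sets, with 0 of 10 at an unadjusted p under 0.05, against 0% and 0.561% of all probe sets.

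The comparison of day 14 with day 7 used no array from the choice of the members. Usp18 was higher at day 14 by 0.82 (SE 0.27, 1.77-fold), Isg15 by 0.82 (SE 0.32), Mx1 by 0.65 (SE 0.34), Ifitm3 by 0.43 (SE 0.15) and Irf7 by 0.42 (SE 0.19). The median of the 8 antiviral genes was 0.40, with 7 of 8 above 0 and Mx2 at -0.11, whereas the median of all probe sets was 0.06. Even so, limma called 0 of 10, as it did 0% of all probe sets. At an unadjusted p under 0.05 there were 4 of 10, against 5.4% of all probe sets. These were Usp18 (unadjusted p = 0.00768), Ifitm3 (unadjusted p = 0.00976), Isg15 (unadjusted p = 0.0205) and Irf7 (unadjusted p = 0.0416), each with an adjusted p of 0.606 in limma. All day 14 arrays lay above all day 7 arrays in Isg15, Mx1, Irf7 and Usp18, 4 of 9 members, against 8.52% of all probe sets.

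These day 14 values rest in part on day 14 replicate 2. Without it and day 49 replicate 2, Isg15 was higher by 0.55 (SE 0.32, limma unadjusted p = 0.111), Rsad2 by 0.10 and Mx1 by 0.38. Usp18 was then higher by 0.66 (unadjusted p = 0.0283), Irf7 by 0.40 (unadjusted p = 0.0316) and Ifitm3 by 0.40 (unadjusted p = 0.0239), with an adjusted p of 1 in limma for each. For this fit too, the share of all probe sets with an unadjusted p under 0.05 is not given here.

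Against control, the antiviral genes at day 14 had a median of -0.12 with 5 of 8 below 0, and the median of all probe sets was 0.07. Ifitm3 was 0.29 above control at day 14 (SE 0.14, limma unadjusted p = 0.0454, adjusted p = 0.365), with 3 of 3 arrays above all 4 controls. It was the single member with an unadjusted p under 0.05, against 13.1% of all probe sets, and 0 of 10 were called, as were 0% of all. No member had all day 14 arrays below the controls (2.62% of all probe sets), and Ifitm3 alone had all above (6.43%). Without the pair of arrays that stood apart the Ifitm3 difference was 0.27. Without control replicate 4 the antiviral median at day 14 was 0.06.

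At day 49 the 8 antiviral genes were again below control on average, with a median of -0.29 and 8 of 8 below 0, whereas Ifitm3 was at -0.04. Without control replicate 4 that median was -0.14, with array weights it was 0.05, and without day 49 replicate 1 Ifitm3 was at 0.09. limma called 0 of 10 member probe sets, with 0 of 10 at an unadjusted p under 0.05, against 0% and 15.4% of all probe sets, and no member had all arrays below the controls (4.8%). Day 49 replicate 3 was the highest of its group in 7 of the 8 genes, the exception being Ifit3, with Mx1 at 6.81 and Usp18 at 6.39 against 5.14 and 5.48 in replicate 2. Day 49 minus day 14 gave a median of -0.25 in the antiviral genes, with 6 of 8 below 0. Ifitm3 was at -0.34 (SE 0.15, limma unadjusted p = 0.0328, adjusted p = 0.344), and its 3 day 49 arrays lay below all day 14 arrays. Without day 14 replicate 2, Isg15 was at -0.05, Rsad2 at 0.10, Oas1a at -0.14 and Ifit3 at -0.01. Mx1, Mx2, Irf7 and Usp18 were then at -0.28, -0.21, -0.29 and -0.35, and Ifitm3 at -0.31. In the full comparison limma called 0 of 10 member probe sets and 0% of all, and 1 of 10 had an unadjusted p under 0.05, against 14.2% of all. The limma F test over days 7, 14 and 49 called 0 of 10 and 0% of all. Ifitm3 (unadjusted p = 0.0232) and Usp18 (unadjusted p = 0.0243) were under 0.05 in it, 2 of 10 against 8.5% of all, with adjusted p = 0.473 for both. With array weights, which give noisy arrays less influence, the F test called 4 of 10, those of Ifitm3, Irf7, Mx1 and Usp18, and 15.6% of all probe sets.

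The antiviral genes varied together. Over the 28 pairs of these genes the median Pearson correlation was 0.473 over 19 arrays and 0.728 over the 17 arrays, and that of Ifitm3 with each of the 8 was 0.0385 and -0.0243. Single pairs of the antiviral genes ranged from 0.0454 to 0.872 over 19 arrays. These are descriptions over arrays that share groups and normalization. They include the control, day 1 and day 3 arrays that chose the genes. Part of the likeness among the 8, and of the contrast with Ifitm3, can therefore come from that choice. The genes most like the mean of the antiviral genes over 19 arrays were Rtp4 (r = 0.858), Epsti1 (0.85), RT1-S3 (0.81), Pik3ap1 (0.806) and Rig1 (0.77), and the same 5 led over 17 arrays. Rtp4 was 7.06, 7.24, 7.50 and 7.59 in control replicates 1 to 4, so it held the same order as the mean of the 8 genes. The genes most like Ifitm3 over 19 arrays were Igfbp6 (r = 0.907), Spon2 (0.882), Inmt (0.88), Pla1a (0.879) and Crabp2 (0.848). Over 17 arrays Steap4 (0.936) and Sin3b (0.911) took the places of Spon2 and Crabp2. Igfbp6, whose product binds insulin-like growth factors, was 10.80, 11.02 and 10.82 at day 1 and 10.09, 10.17, 9.90 and 9.91 in control. It thus lay above all controls at day 1, as Ifitm3 and 4.4% of all probe sets did.

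The other members of the Ifitm family showed smaller differences at day 1. Ifitm1, which acts at the cell surface, was 9.25, 9.37 and 9.28 at day 1, against 9.03, 9.05, 9.06 and 8.83 in control, a difference of 0.30 (SE 0.13). Ifitm2 was 9.11, 9.10 and 8.99 at day 1, against 8.83, 8.88, 8.77 and 8.67 in control, a difference of 0.28 (SE 0.18). Both lay above all controls, as did 4.4% of all probe sets, and the limma adjusted p was 1 for each. Ifitm10, a distant relative, was 9.32, 9.26 and 9.46 at day 1, against 9.10, 9.22, 9.29 and 9.24 in control, and overlapped. At day 14 Ifitm1 was 0.35 above control (limma adjusted p = 0.365), with 9.68 in replicate 2, or 0.18 without the pair of arrays that stood apart, and Ifitm2 was at -0.20 with 7.95 in that array. These genes are close relatives in sequence, and how far their probes tell them apart was not analysed here.

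**Figure D4:**
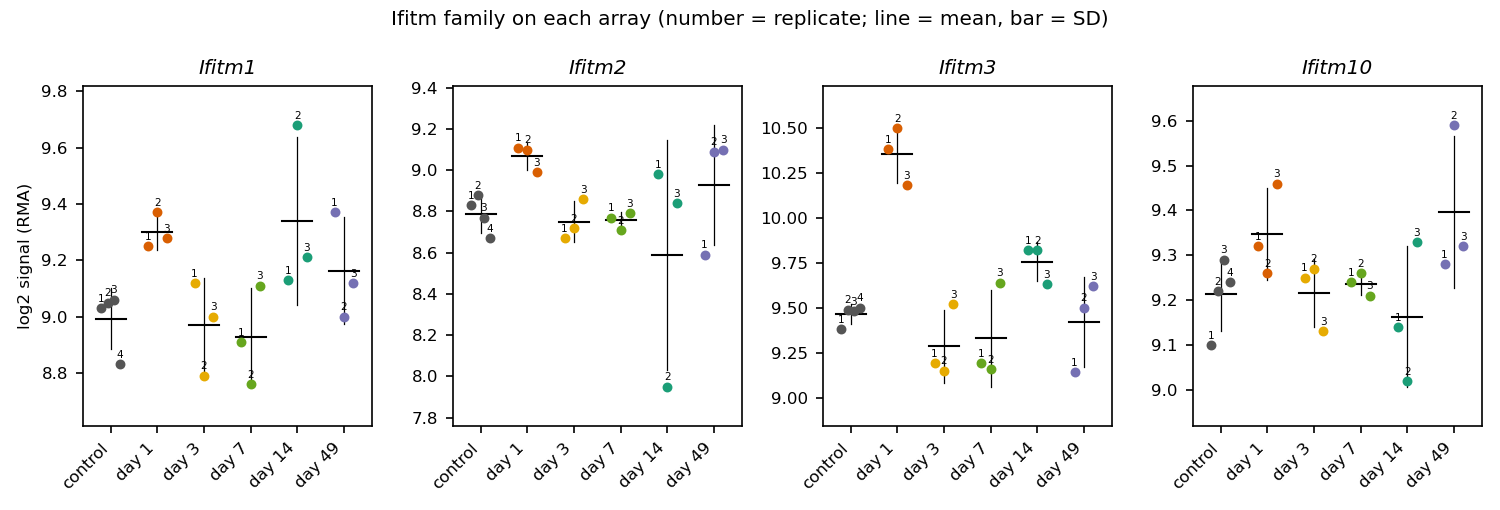
Log2 RMA signal (vertical axes, which differ between panels) of Ifitm1, Ifitm2, Ifitm3 and Ifitm10 in each array, from control to day 49; points are arrays numbered by replicate, lines are means and bars are SD. The day 1 points lie above all controls in Ifitm1, Ifitm2 and Ifitm3, with differences of 0.30, 0.28 and 0.89, as they do in 4.4% of all probe sets.

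Marker lists of other cell types were set beside the day 1 values of Ifitm3. The mean of 12 of 13 endothelial and pericyte markers was 6.48 to 6.58 at day 1, against 6.34 to 6.47 in control. The mean of 8 of 9 astrocyte markers was 6.73 to 6.87 at day 1, against 6.58 to 6.68 in control, and 6.76 to 7.05 at day 14. The 11 of 12 microglia markers averaged 6.02 to 6.23 at day 1, against 5.92 to 6.03 in control, and the 12 meningeal markers 8.16 to 8.57, against 8.35 to 8.62. Their part in the Ifitm3 values was not tested. For the antiviral genes, the microglia list was 5.88 to 6.17 at day 3 and 5.93 to 6.00 at day 7, which overlapped with control. The 12 meningeal markers averaged 8.34, 8.23, 8.32, 8.50 and 8.37 at days 1, 3, 7, 14 and 49, and 8.49 in control. The 5 superficial layer neuron markers averaged 5.46, 5.51, 5.52, 5.67 and 5.48 at these times, and 5.60 in control. By group mean both lists were below control at days 1, 3, 7 and 49, with arrays that overlapped with the controls. At day 14 the meningeal list was level with control. The superficial layer list was then 5.58, 5.92 and 5.50 by array, with the high value in the array that stood apart. Both are named out of 11 marker lists because their group means moved like the antiviral genes. Among the control arrays, as given above, both lists ran in the other direction. Their part in the antiviral values was not tested.

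The wider interferon pathway was described with lists of other genes, of which 99 were measured. In limma 0 of 99 were called at any of the 5 times, and 4, 0, 1, 11 and 15 had an unadjusted p under 0.05 at days 1, 3, 7, 14 and 49. Of all probe sets 1.64%, 0.908%, 0.886%, 13.1% and 15.4% did so, so the counts at days 14 and 49 were near the background. Their median difference from control was -0.04 at days 1, 3 and 7, 0.04 at day 14 and -0.05 at day 49, with 58, 73, 70, 40 and 57 of 99 below 0. Of all probe sets 46.7%, 51.3%, 47.7%, 35% and 47.9% were below 0. The antiviral genes thus lay farther below control than the median of the pathway they belong to, which their choice by these values makes a description.

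Of 12 listed interferon genes 3 were measured, Ifnb1, Ifnk and Ifng, and limma called none of these 3 against control. At an unadjusted p under 0.05 there was 1 of 3 at day 49, Ifnb1, against 15.4% of all probe sets, and 0 of 3 at the other times. Ifnb1 was 3.65, 4.21 and 3.64 at day 49, with the high value in the array that stood apart. Its difference from control was 0.24, or 0.05 without the pair of arrays that stood apart. Ifnb1, which encodes interferon beta, was 3.52 ± 0.04 at day 1 (SD, n = 3) and 3.60 ± 0.12 in control (SD, n = 4), and Ifnk was 3.52 ± 0.07 at day 1 and 3.50 ± 0.05 in control. Group means of these 3 genes lay between 3.24 and 3.83, far below the median probe set level of 5.60. Their transcripts may thus not be detected, and unchanged interferon is not shown. Of 9 sensors, 8 lay below 0 at day 3 and at day 7. The nucleic acid sensor Zbp1 was at -0.21 at day 1 and -0.19 at day 7 (SE 0.07 each, limma adjusted p = 1), and Ticam1, the adaptor of Toll-like receptors, at 0.18 at day 14 (SE 0.08, limma adjusted p = 0.365).

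Of 13 receptor and signalling genes, 5, 7, 8, 8 and 10 lay below 0 at days 1, 3, 7, 14 and 49. Irf9, the DNA-binding subunit of the interferon-activated complex, was at -0.17, -0.24, -0.18, 0.13 and -0.24 (SE 0.13 each), with -0.04 at day 14 and -0.14 at day 49 without the pair of arrays that stood apart, and the kinase gene Jak2 was at -0.45 at day 49 (SE 0.16, limma adjusted p = 0.306). In the interferon regulatory factors, Irf2, a repressor of interferon-stimulated genes, was at 0.32 at day 14, where replicate 2 stood at 8.03 and the others at 6.36 and 6.46, and Irf3, which induces interferon beta, was at 0.23 (SE 0.09, limma adjusted p = 0.365). Among 7 inhibitors, Socs1, which blocks the receptor kinases, was at 0.35 at day 49, with 6.34 in replicate 2 and 5.40 and 5.52 in the others. Tnfaip3, which restrains NF-kB, was at -0.46 at day 49, with 4.74 in the same array.

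Of 38 other antiviral effectors, 28, 32, 27, 16 and 27 lay below 0 at days 1, 3, 7, 14 and 49, with medians of -0.08, -0.07, -0.03, 0.02 and -0.07. Isg20, an exonuclease for viral RNA, was at 0.19 at day 1 (SE 0.08), and Dtx3l, a ubiquitin ligase, at -0.54 at day 49 (SE 0.16, limma adjusted p = 0.306), with 5.52 in replicate 2. Without the pair of arrays that stood apart Dtx3l was at -0.24. Of 21 genes better known as targets of interferon gamma, 7 lay below 0 at day 14, close to the 35% of all probe sets, with a median of 0.15 against 0.07 over all. Cxcl9, a chemokine that draws T cells, was 4.89, 5.13 and 5.05 at day 1, against 5.42, 5.33, 5.41 and 5.45 in control, a difference of -0.38 (SE 0.12, limma adjusted p = 1). Gbp2, a guanylate-binding GTPase, was 7.52, 7.61 and 7.48 at day 14 and 6.99, 6.31 and 6.93 at day 49, against 7.28, 7.22, 7.05 and 7.61 in control. With array weights 1 of 99 was called at day 1, Cxcl9, against 0.564% of all probe sets. At day 49 they gave 14 of 99, against 21% of all probe sets.

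**Figure D5:**
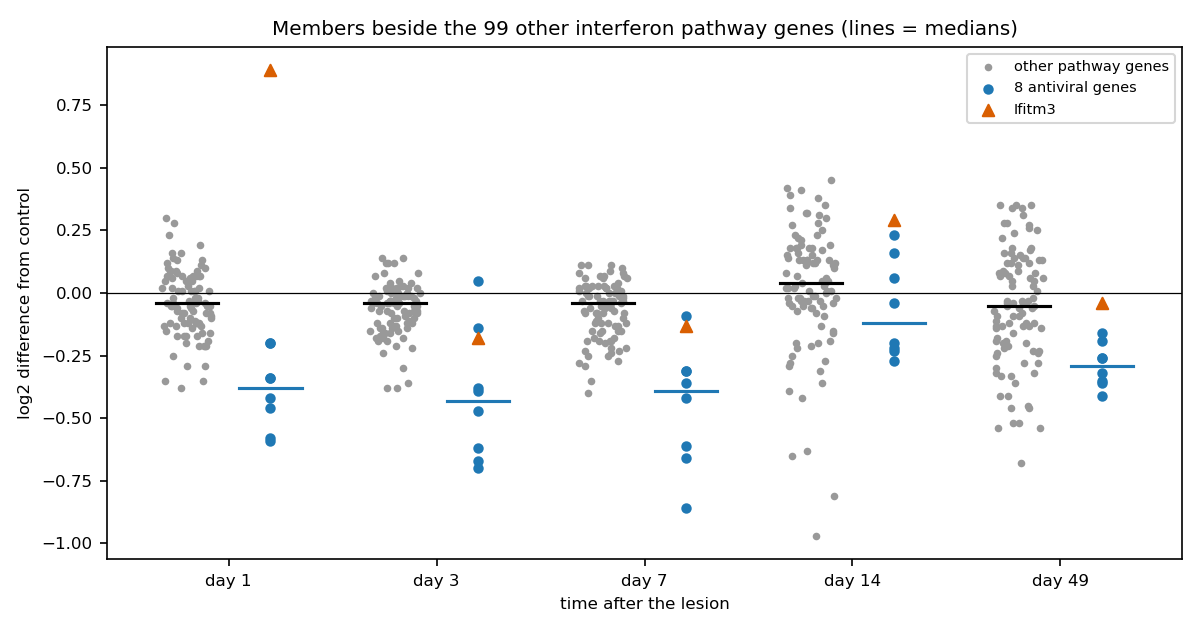
Log2 difference from control (vertical axis) at days 1 to 49 (horizontal axis) for the 99 other interferon pathway genes (grey, spread sideways for legibility), the 8 antiviral genes (blue) and Ifitm3 (orange triangles), with medians as lines. At days 1, 3 and 7 the grey medians are at -0.04 and the blue ones at -0.38, -0.43 and -0.39.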

How the data were processed

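The authors deposited log2 signals, 1 per probe set and array, made with RMA per the submitters' processing notes, with a version not given in the sources used here. Labelled cRNA came from 6 ug of total RNA per array. A shift common to every transcript is hidden by the quantile step of RMA, and for arrays their number limits the precision. No scan dates or batches were analysed here. The members and lists were chosen with earlier results of these data known.

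Of 31099 probe sets, 57 array controls were left out, and 31042 were tested with limma 3.58.1 (R 4.3.3) by fitting the 6 group means jointly, two-sided, with Benjamini-Hochberg adjustment over all of them and a threshold of 0.05 (13 residual and 2.76 prior degrees of freedom). Symbols came from the platform annotation, updated by gene ID. A single symbol was found for 20826 probe sets, several for 436 and none for 9780. A gene stood for its brightest probe set.

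Named were every member, the 2 genes of each pathway list with the smallest p in an F test of the 5 differences from control, and the 5 genes most correlated with Ifitm3 or with the antiviral mean. Ifitm2 was added as the nearest relative of Ifitm3. Deviations of like-numbered day 1 and control arrays correlated by 0.166, 0.117 and 0.269, all over 0.1. This held for no other comparison, though day 7 against control came close, with 0.0935, 0.115 and 0.265. The test was checked on simulated data for day 14 against day 7. It recovered 12 of 50 probe sets changed by 0.5 on the log2 scale and 40 of 50 changed by 1. At changes of 2 and 3 it recovered 50 and 48 of 50, and it made 10 false calls. Most changes of 0.5 were thus missed, so the counts of 0 do not show that members were unchanged. Alternatives were array weights, a replicate block, centring each array, repeating the quantile normalization, dropping probe sets below the median level, eBayes with trend and robust settings, testing 1 probe set per gene, a beta-actin covariate, fitting only the groups compared, leaving out the 2 arrays that stand apart, and leaving out each array in turn. Figures used matplotlib 3.10.9 (Python 3.11.15).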

Additional observations from a re-analysis of the deposited data

Results flagged for a closer look

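In Ifitm3, control replicate 1 at a log2 signal of 9.38 lay apart from the other controls at 9.48, 9.49 and 9.50. Its gap was 0.868 of the group's range, above Dixon's critical value for a group of 4. The range itself was 0.11. Of 9 control groups tested, 1 per member, this was the only one past that value, and chance passes it in about 1 group in 20.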

How the results depend on the processing

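The replicate number as a replicate block, in which control replicate 4 has no partner, gave a median of the 8 antiviral genes of -0.24, -0.35, -0.28, 0.06 and -0.14 at days 1, 3, 7, 14 and 49, the same as without that array. It called no member. Array weights gave 4 called members in the F test over days 7, 14 and 49, an antiviral median of 0.05 at day 49, an Ifitm3 difference of 0.12 at day 49, 1 called pathway gene at day 1 and 14 at day 49. Quantile normalization again gave 0.06 for Ifitm3 at day 49. The cause was not tested in these cases. Leaving out single arrays, the antiviral median ranged from -0.53 to -0.23 at day 1, -0.56 to -0.35 at day 3, -0.52 to -0.28 at day 7, -0.27 to 0.06 at day 14 and -0.47 to -0.14 at day 49, and Ifitm3 from 0.82 to 0.98, -0.29 to -0.11, -0.29 to -0.05, 0.26 to 0.36 and -0.14 to 0.09. The extremes came without control replicate 1 (-0.27 at day 14), day 49 replicate 3 (-0.47), day 3 replicate 3 or day 7 replicate 3 (Ifitm3 -0.29 each) and day 49 replicate 1 (Ifitm3 0.09). The pathway count at day 49 ranged from 0 to 8, with 8 without day 49 replicate 1. The share of all probe sets called in that setting is not given here, so this count is not read as a result about the pathway. The other counts of called members were 0 under every alternative run. The filter at the median probe set removed Oas1a, Ifit3 and the dimmer Mx2 probe set.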
